A study of Mus musculus with 11 samples.

Results

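Casp4, Casp8, Bax, Bbc3, Pmaip1, Ripk1, Ripk3, Mlkl and Gsdmd, 9 of the 32285 genes counted, were followed by symbol through single-cell RNA sequencing of mouse brain after stroke surgery. They are effectors of apoptosis, necroptosis and pyroptosis, 3 forms of regulated cell death. Cells of the right brain came from 11 mice and were sequenced in 11 libraries, each labelled as a sample of its own. The sham + WT group had 3 libraries of wild-type mice after sham surgery, in which the suture did not enter the internal carotid artery. The MCAO/R + WT group had 2 libraries of wild-type mice after middle cerebral artery occlusion and reperfusion, a filament model of ischaemic stroke. The sham + Lrg1-/- and MCAO/R + Lrg1-/- groups had 3 libraries each, from mice that lacked Lrg1, which encodes a secreted leucine-rich glycoprotein, in every cell. Wild-type mice were male C57BL/6 of 8 to 10 weeks. The Lrg1-/- mice came from 1 knockout strain crossed to C57BL/6N and were 3 months old, and their sex was not given in the sources used here. The methods list several reperfusion times without tying one to the sequenced mice, and the discussion of the study speaks of tissue examined at a single hour. Genotype, age, strain source and library handling therefore cannot be told apart in any comparison of Lrg1-/- with WT.

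In apoptosis, the BH3-only proteins Bbc3 (PUMA) and Pmaip1 (NOXA) bind anti-apoptotic Bcl2 proteins, and Bax then permeabilizes the outer mitochondrial membrane. Casp8 is the initiator caspase of death receptors and also cleaves Ripk1 and Ripk3. When Casp8 is not active, Ripk1 and Ripk3 assemble and Ripk3 phosphorylates Mlkl, which ruptures the plasma membrane in necroptosis. Casp4, called caspase-11 in mice, senses cytosolic lipopolysaccharide and cleaves Gsdmd, whose N-terminal part forms the pores of pyroptosis. Most of these proteins are controlled by cleavage or phosphorylation, which transcript counts do not show.

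In GRCm38, with the gene spans of GENCODE M21, Bbc3 lies on chromosome 7 at 16308393 to 16318205, and Bax on the same chromosome at 45461697 to 45466898. Casp8 lies on chromosome 1 at 58795374 to 58847503, and Casp4 on chromosome 9 at 5308828 to 5336783. Ripk1 lies on chromosome 13 at 34002363 to 34037147, Ripk3 on chromosome 14 at 55784995 to 55788865, Mlkl on chromosome 8 at 111311797 to 111338177 and Gsdmd on chromosome 15 at 75862327 to 75867408.

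RefSeq promoters (GRCm38.p6, bases before the start site) were listed for 7 of the 9 genes. A single window was searched per gene, before the most upstream start listed. Bbc3 had 3 starts listed, Casp4 had 2 and Ripk1 had 2, so their other starts were not searched. The windows of Bbc3 and Casp8 lie inside the gene spans given above. Those of Bbc3, Bax and Casp4 are shown because these genes had the most calls in the comparisons, and capitals mark matches to the kappa B or p53 half-site patterns. Bbc3 is at chr7:16309333-16309582 on the plus strand, Bax at chr7:45466899-45467148 on the minus strand and Casp4 at chr9:5308599-5308827 on the plus strand.
Bbc3: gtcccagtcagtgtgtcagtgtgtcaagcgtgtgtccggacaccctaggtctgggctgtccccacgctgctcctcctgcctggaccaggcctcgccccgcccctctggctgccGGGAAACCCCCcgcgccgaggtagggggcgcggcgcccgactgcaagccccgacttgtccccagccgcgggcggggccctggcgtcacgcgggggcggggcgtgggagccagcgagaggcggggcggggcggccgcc
Bax: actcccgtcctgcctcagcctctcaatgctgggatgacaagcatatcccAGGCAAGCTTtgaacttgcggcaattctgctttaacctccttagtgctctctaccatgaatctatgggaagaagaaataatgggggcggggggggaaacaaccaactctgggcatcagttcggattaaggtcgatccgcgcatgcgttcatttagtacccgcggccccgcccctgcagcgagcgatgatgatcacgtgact
Casp4: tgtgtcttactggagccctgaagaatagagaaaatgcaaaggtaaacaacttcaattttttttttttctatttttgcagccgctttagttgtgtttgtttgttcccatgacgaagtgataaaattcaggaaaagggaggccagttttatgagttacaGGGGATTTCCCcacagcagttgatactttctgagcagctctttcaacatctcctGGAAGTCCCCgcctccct
The Bbc3 window was 76.4% G and C, against 54.0% for Bax, 41.5% for Casp4 and a median of 52.4% over 32851 promoters. Bbc3 had 2 overlapping kappa B matches, which share the capitals from base 114 to 124. Casp4 had 3, of which 2 overlap from base 158 to 168 and the other spans bases 212 to 221. Bax had 1 p53 half-site match, from base 50 to 59. Over all promoters, searched on both strands in up to 250 bases, 7.25% held a kappa B match and 7.13% a p53 half-site match. The other patterns searched were AP-1 (TGANTCA, in 6.75%), GAS (TTCNNNGAA, 7.02%), the ISRE core (2 GAAA repeats spaced by 2 bases, 2.98%) and the ATF4/CHOP composite (TGATGNAA, 3.45%). None of these 4 matched in the 7 windows, and the windows of Casp8, Ripk1, Ripk3 and Mlkl held no match of any kind. A match is a stretch of letters and not a shown binding site.

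Of 155804 barcodes, 132437 passed the filters and 125555 remained after doublet removal. Of these, 99609 cells fell into 16 marker-defined cell types and 25946 stayed unnamed, 17062 of them MCAO/R + Lrg1-/- cells of a single cluster. The cells named neurons came from clusters led by genes such as Nrxn3, Adarb2 and Dlx6os1, and in the smaller cluster Sox11. The next-best marker list of these clusters was that of dividing neural progenitors, and whether the cells were mature neurons was not tested. Libraries held 37159497 to 171813031 UMIs (unique molecular identifiers, 1 per captured transcript). Lrg1 gave 1 UMI over the 6 Lrg1-/- libraries, 192 to 662 in each sham + WT library and 16233 to 17868 in each MCAO/R + WT library, as the labels have it. Any pair of libraries shared 5 to 146 cell barcodes, at most 1.15% of the smaller library. The Lrg1-/- libraries stood apart, although the protocol included a step to lyse red blood cells. Summed haemoglobin transcripts in microglia were 15 to 23 CPM (counts per 1000000 UMIs) in the 5 WT libraries and 6370 to 35400 CPM in the 6 Lrg1-/- libraries, and all 6 choroid plexus transcripts were also higher there in both comparisons of the genotypes. The cluster named erythroid goes against its name in the sham + WT libraries, where haemoglobin was 35.3 to 91.2 CPM and microglial transcripts 36800 to 41600 CPM, and in 1 of the 2 MCAO/R + WT libraries, where haemoglobin was 45.1 CPM. Its member calls are counted but not described, and the pooled counts of member calls in each comparison are also given without it. The counts of cell types by gene and of the gene lists include it.

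Levels are given as UMIs summed per library and cell type, per 1000000 of the library's TMM-adjusted total in that cell type. The Casp4 level was highest in microglia, with a mean of 521 CPM over libraries, then neutrophils at 316 CPM and macrophages and monocytes at 305 CPM. T cells followed at 70.3 CPM. Casp8 and Gsdmd were also highest in microglia, at 91.1 and 44.7 CPM, and lowest in oligodendrocytes, at 6.74 and 2.91 CPM. The microglial Bbc3 mean was 146 CPM, against 69.8 CPM in neutrophils and 47.1 CPM in neurons, but the TMM-adjusted level ranged from 29.9 to 382 CPM over the libraries. Bax varied least by cell type, from 74.4 CPM in ependymal cells to 171 CPM in oligodendrocyte precursor cells. The latter mean rests on 1 MCAO/R + WT and 2 MCAO/R + Lrg1-/- libraries and no sham library.

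Pmaip1 was highest in B cells at 89.6 CPM and neutrophils at 78.7 CPM, and under 10 CPM in every neural cell type. Ripk1 was highest in vascular smooth muscle cells at 163 CPM and endothelial cells at 102 CPM. Ripk3 was low everywhere, with its highest means in macrophages and monocytes at 10.3 CPM and T cells at 9.95 CPM. Mlkl was highest in endothelial cells at 11.1 CPM and oligodendrocytes at 10.1 CPM, so that the highest cell types of Ripk3 and Mlkl were not the same. The order among neighbours in these rankings was not tested, and the ranges over libraries overlap for Ripk3 in macrophages and T cells and for Mlkl in endothelial cells and oligodendrocytes.

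**Figure D1:**
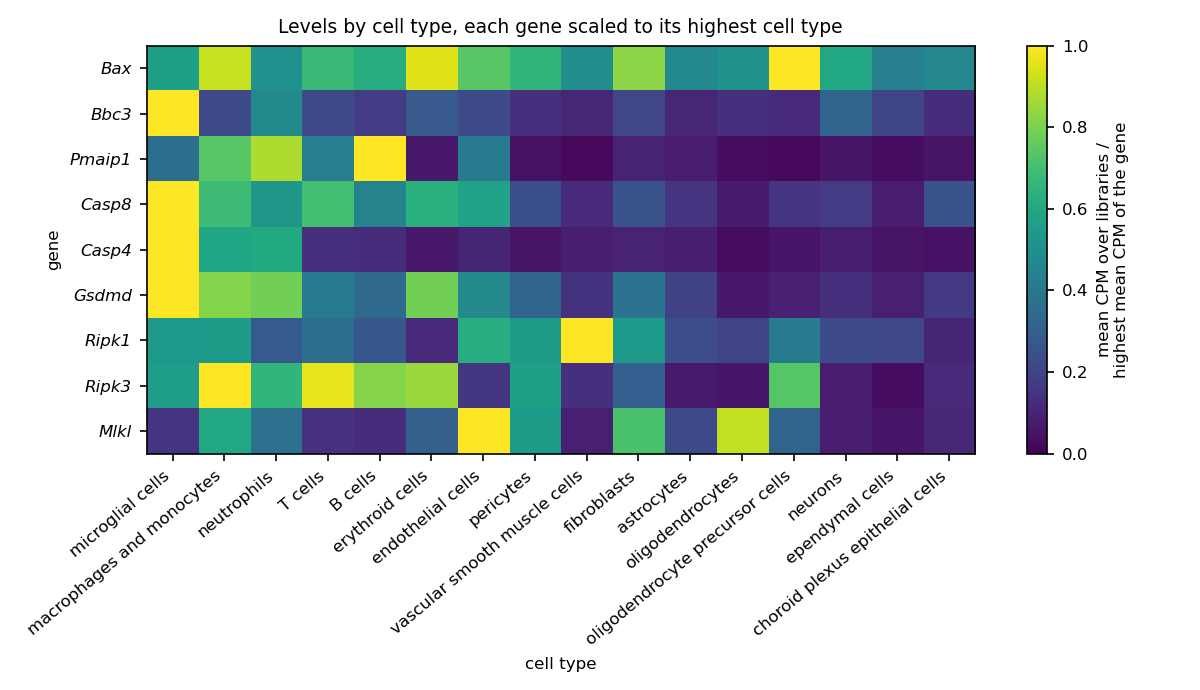
Mean plain CPM of each gene (rows) in each of 16 cell types (columns), divided by the gene's own highest mean, so that colours compare cell types within a row and not genes. Casp4, Casp8, Gsdmd and Bbc3 peak in microglia, Ripk1 in vascular smooth muscle cells and Mlkl in endothelial cells, whereas the Bax row is the most even, from 74.4 to 171 CPM. Its highest mean, in oligodendrocyte precursor cells, rests on MCAO/R libraries alone.

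A gene was called in a cell type when its Benjamini-Hochberg adjusted p over all genes tested there was under 0.05 (edgeR quasi-likelihood test) and its natural-log fold change passed 0.25. Between MCAO/R + WT and sham + WT, 7 of 98 gene and cell type pairs were called, 4 higher and 3 lower, or 7.14%. Over all genes in the same 13 cell types 9.03% were called, 4.66% higher and 4.37% lower. Between MCAO/R + Lrg1-/- and sham + Lrg1-/-, 21 of 93 were called, 13 higher and 8 lower, or 22.6%, against 12.3% of all genes (6.73% higher and 5.61% lower). The count in WT mice was 12 in a fit of its 2 groups alone and 14 with no filter on low counts. The share of all genes was not computed under those settings, so 9.03% stands beside the main count only.

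Between MCAO/R + Lrg1-/- and MCAO/R + WT, 23 of 98 pairs were called, 10 higher and 13 lower, or 23.5%, against 15.5% of all genes (8.25% higher and 7.22% lower). Between sham + Lrg1-/- and sham + WT, 15 of 93 were called, 5 higher and 10 lower, or 16.1%, against 11.0% (5.49% higher and 5.48% lower). The interaction, which asks whether the surgery difference itself differed by genotype, called 2 of 85 pairs, both lower, or 2.35%, against 1.57% of all genes (0.730% lower). An unadjusted p under 0.05 was reached by 16 of those 85. Of all genes, 4702 of 18329 reached it in the microglial interaction and 586 of 11359 in that of astrocytes. The share of all genes at this limit was not pooled, here or beside the counts by gene below. Without the erythroid cluster the 5 counts were 6, 17, 22, 15 and 2 in the order given. That cluster held 9 of the pairs in each comparison, with 1, 4, 1, 0 and 0 called. Of all genes in it 3.7%, 14.9%, 5.11%, 2.23% and 0.0106% were called. The comparisons share groups, so their counts are not independent of each other.

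**Figure D2:**
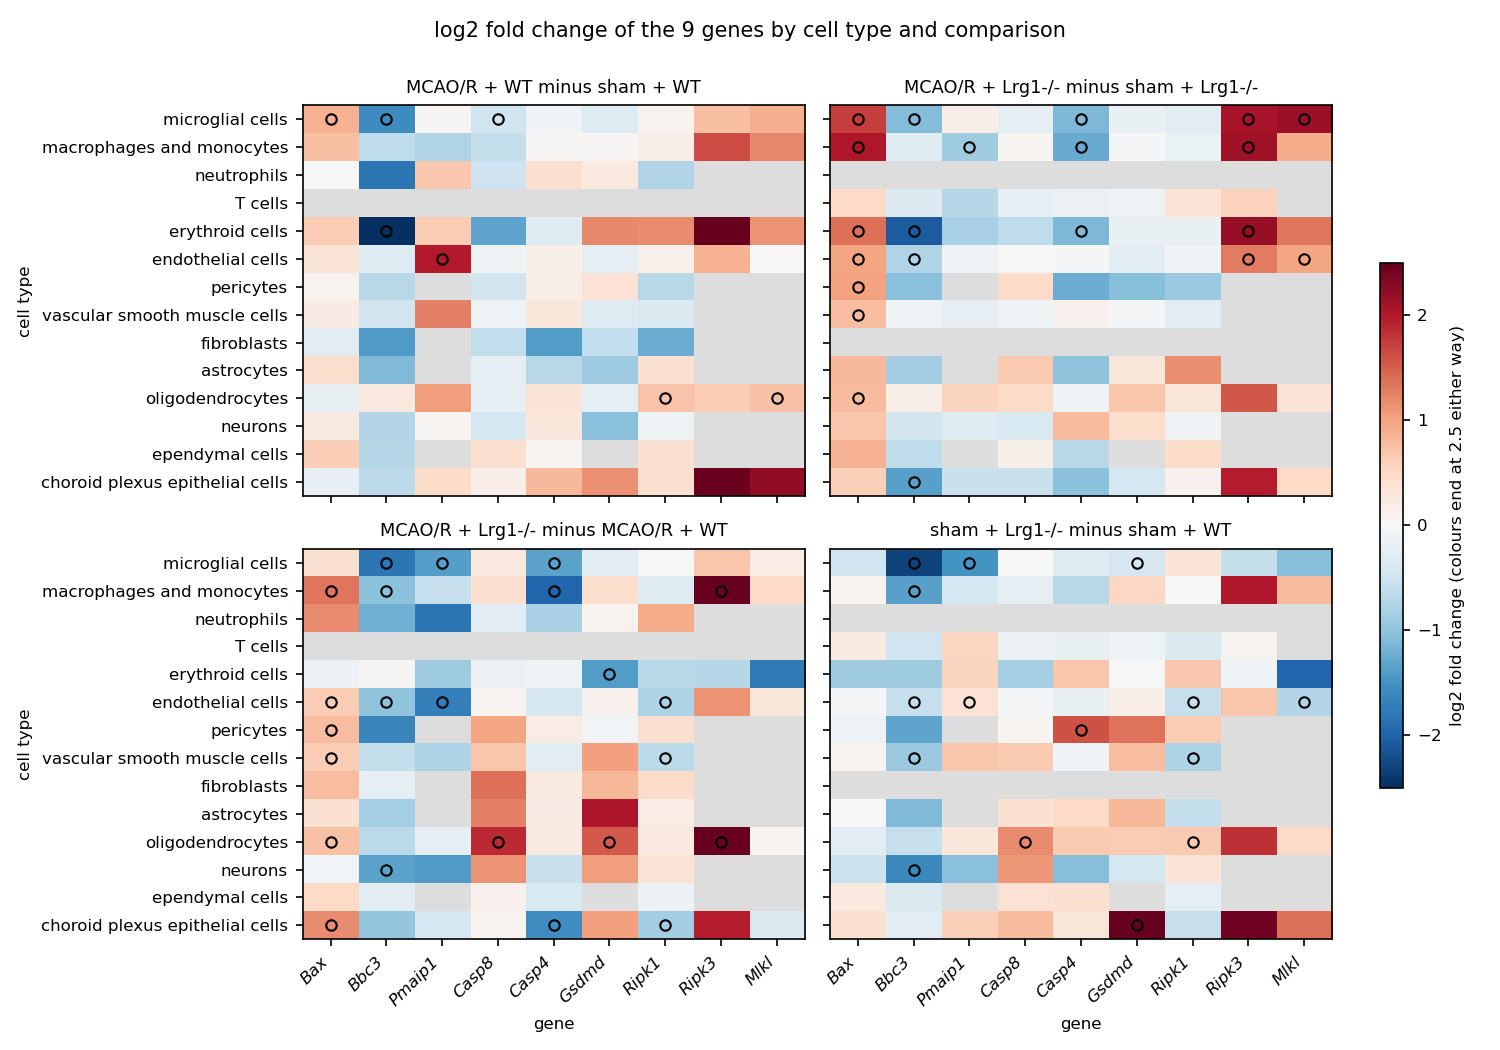
Fitted log2 fold change (colour) of the 9 genes (columns) by cell type (rows) in 4 comparisons, where open circles mark called pairs and grey marks pairs that were not tested. The Bbc3 column is blue in 12 of 13 cell types and the Bax column red in 11 of 13 when Lrg1-/- is set against WT after MCAO/R, and Pmaip1 in endothelial cells stands out after MCAO/R in WT mice.

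Bbc3 was called lower in Lrg1-/- than in WT mice in 5 cell types after sham surgery and 4 after MCAO/R, with the largest called difference in microglia. In microglia its level was 362, 382 and 342 CPM in the sham + WT libraries and 74.3, 79 and 64.8 CPM in the sham + Lrg1-/- libraries. It was 122 and 120 CPM in MCAO/R + WT and 29.9, 33.8 and 39.4 CPM in MCAO/R + Lrg1-/-. No library of any group overlapped with another group, in the order sham + WT, MCAO/R + WT, sham + Lrg1-/- and MCAO/R + Lrg1-/-. The log2 difference of sham + Lrg1-/- from sham + WT was -2.31 ± 0.13 (SE, adjusted p = 2.04e-07, edgeR), and that of MCAO/R + Lrg1-/- from MCAO/R + WT was -1.81 (adjusted p = 5.58e-06). The level fell after MCAO/R in both genotypes, with log2 fold changes of -1.58 ± 0.14 in WT (adjusted p = 9.55e-06) and -1.08 in Lrg1-/- mice. All 4 microglial Bbc3 calls held under every alternative setting and with each library left out.

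The microglia fell into a cluster held mostly by sham cells and a cluster held mostly by MCAO/R cells, led by Ccl3 and Nlrp3. In the first, plain CPM of Bbc3 was 330 to 366 in sham + WT, 70.7 to 83.8 in sham + Lrg1-/-, 148 to 161 in MCAO/R + WT and 32.4 to 54.7 in MCAO/R + Lrg1-/- libraries. In the other cluster the ranges were 258 to 294, 67.1 to 96.2, 112 to 116 and 31.4 to 38.8 CPM. The order of the 4 groups was the same in each cluster. With every cell thinned to 1000 UMIs, 25.2 to 27.6% of sham + WT microglia held a Bbc3 UMI, against 6.54 to 7.34% in sham + Lrg1-/-, at most 10.6% in MCAO/R + WT and 2.02 to 3.73% in MCAO/R + Lrg1-/-. Without thinning these shares were 72.8 to 82.8%, 29.6 to 35.9%, at most 55.3% and 22.9 to 35.1%. In oligodendrocytes, where Bbc3 is low, the thinned shares were 0.552 to 4.98% over all libraries, and the low shares of MCAO/R + Lrg1-/- microglia lay within that range. In plain CPM the microglial clusters of MCAO/R + Lrg1-/- (31.4 to 54.7) lay above the largest oligodendrocyte clusters of that group (4.76 to 27). The median UMIs per cell were 4295.5 to 15321.5 in microglia and 3685 to 16276 in oligodendrocytes.

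The sham comparison of genotypes gave a negative Bbc3 log2 difference in 12 of 12 cell types, from -2.31 to -0.267, and 5 were called. In neurons Bbc3 was 93.6, 89 and 68.1 CPM in sham + WT against 26.5 and 29.3 CPM in the 2 sham + Lrg1-/- libraries with at least 20 neurons, a log2 difference of -1.62. Macrophages and monocytes were at 68.8, 47.9 and 47.4 against 25.7, 13.2 and 24.3 CPM, a log2 difference of -1.36. Vascular smooth muscle cells (-0.93) and endothelial cells (-0.58) completed the calls. None of these 5 pairs of groups overlapped, but the groups were also apart in uncalled cell types, 8 of the 12 in all. Separation of groups this small is a description, here and throughout, as its share over all genes was not computed. Each of the 4 calls outside microglia was lost without sham + Lrg1-/- replicate 2 (adjusted p = 0.0525 to 0.109) or without sham + WT replicate 1 (0.0521 to 0.12). With 1000 UMIs per cell the macrophage call was lost, at a log2 difference of -0.681 (adjusted p = 0.71) against -2.20 with cells named one by one, as were the neuron and endothelial calls, and with cells named one by one the smooth muscle call was. The neuron call was also lost without sham + Lrg1-/- replicate 1 (0.252) or sham + WT replicate 2 (0.0718), the macrophage call without sham + Lrg1-/- replicate 5 (0.0605), and the endothelial call without sham + Lrg1-/- replicate 1 or 5 or sham + WT replicate 2 (0.0732 to 0.113).

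After MCAO/R, Bbc3 was lower in Lrg1-/- than in WT mice in 12 of 13 cell types by fitted value, and 4 were called. In endothelial cells the level was 37.7 and 37.9 CPM in MCAO/R + WT and 12.7, 19.9 and 23.5 CPM in MCAO/R + Lrg1-/-, a log2 difference of -1.0004 (adjusted p = 0.003). This call held under every alternative. In neurons it was 64.4 and 39 against 18.3, 24.2 and 17.3 CPM (-1.34), and in macrophages and monocytes 36 and 33.6 against 21.3, 15.1 and 17.8 CPM (-1.02). Neither pair of groups overlapped, as was so in 10 of the 13 cell types. Both calls were lost without MCAO/R + WT replicate 1 (adjusted p = 0.0978 in neurons and 0.0565 in macrophages), the neuron call without MCAO/R + Lrg1-/- replicate 5 (0.0625) and the macrophage call without MCAO/R + Lrg1-/- replicate 2 (0.0515). Without either library of MCAO/R + WT, here and throughout, that group is 1 library, which is then assumed to vary like the other groups. Both calls were also lost with 1000 UMIs per cell (log2 -2.43 in neurons), and the neuron call in a fit of those 2 groups alone or with cells named one by one. Within Lrg1-/- mice Bbc3 also fell after MCAO/R in endothelial cells, from 29.3, 33.1 and 33.4 CPM (-0.76), and in choroid plexus epithelial cells, from 14.5 to 28.2 CPM in 3 libraries to 9.22, 7.25 and 9.84 CPM (-1.35). The latter call was lost without replicate 2 or 5 of either Lrg1-/- group or without sham + WT replicate 1 (adjusted p = 0.0563 to 0.162), in a fit of those 2 groups alone, without cells over 1% haemoglobin, and with cells named one by one, where the log2 fold change was -0.585 (adjusted p = 0.379). The endothelial one was lost with 1000 UMIs per cell. The interaction was not called for Bbc3 in any of 11 cell types by edgeR, where 1 had an unadjusted p under 0.05.

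Transcripts that respond to tissue dissociation, a fixed list of 13 genes such as Fos and Jun, moved with Bbc3 in microglia. Their summed plain CPM was 36000 to 38600 in sham + WT, 31900 to 36800 in MCAO/R + WT, 19000 to 23200 in sham + Lrg1-/- and 12400 to 16400 in MCAO/R + Lrg1-/- microglia. In the sham comparison 9 of the 13 were lower and none higher, and after MCAO/R 10 were lower and 1 higher, beside 22.2% and 20.4% of all genes called. In macrophages and monocytes the sums were 36200 to 42200, 30500 to 40200, 16600 to 22600 and 6280 to 10100 CPM in the same order of groups, and in neurons 13100 to 16600, 14300 to 15400, 6450 to 8800 and 4600 to 6640 CPM. In oligodendrocytes the sums, given with Ripk1 below, were higher in sham + Lrg1-/- than in sham + WT, while Bbc3 was lower (log2 -0.575, not called). Over all cell types 30 calls of the list were lower and 22 higher of 156 pairs between the sham groups (33.3%, beside 11.0% of all genes). After MCAO/R 40 were lower and 14 higher of 169 between the genotypes (32.0%, beside 15.5%). The part of these transcripts in the Bbc3 difference was not tested.

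Pmaip1 rose in endothelial cells after MCAO/R in WT mice, and its response differed from that in Lrg1-/- mice by the interaction test. The level was 22.7, 21.6 and 22.3 CPM in sham + WT, 75.4 and 101 CPM in MCAO/R + WT, 29.6, 29.2 and 26.7 CPM in sham + Lrg1-/- and 28.2, 27.4 and 25.3 CPM in MCAO/R + Lrg1-/-. Both MCAO/R + WT libraries lay above all the others. The gene spans bases 66458533 to 66465565 of chromosome 18. The log2 fold change after MCAO/R was 1.99 ± 0.12 in WT (adjusted p = 1.25e-06) and -0.08 ± 0.12 in Lrg1-/- mice (adjusted p = 0.671), and MCAO/R + Lrg1-/- differed from MCAO/R + WT by -1.71 ± 0.12 (adjusted p = 2.34e-05). The interaction was -2.07 ± 0.17 (adjusted p = 0.000223, edgeR). These 3 calls held under every alternative setting and with each library left out. Among the 9 genes this was the only member called in endothelial cells between MCAO/R + WT and sham + WT, where 17.3% of all genes were called, and the only one in the endothelial interaction, where 1.27% were.

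Endothelial cells formed clusters, of which the 3 largest each had more Pmaip1 in MCAO/R + WT than in either sham group. The genotypes were not spread evenly over them, since 2876 of 4857 MCAO/R + WT cells were in the first and 2423 of 4204 MCAO/R + Lrg1-/- cells in the second. In the cluster led by Slco1a4 and Cxcl12, plain CPM of Pmaip1 was 27.6 to 28.8 in sham + WT, 102 to 147 in MCAO/R + WT, 40.2 to 45.8 in sham + Lrg1-/- and 38.6 to 53.4 in MCAO/R + Lrg1-/-. In the cluster led by Lcn2 and Lrg1 the ranges were 5.29 to 13.4, 50.6 to 64.5, 12.1 to 17.8 and 19.6 to 24.4 CPM. There MCAO/R + Lrg1-/- lay above sham + Lrg1-/- without overlap, whereas these groups overlapped in the first cluster. The first cluster held 1377 of 2424 sham + Lrg1-/- cells and 929 of 4204 MCAO/R + Lrg1-/- cells. The part of this split in the pooled Lrg1-/- response was not tested. In the third, led by Il1r1 and Gkn3, 39 to 46.7 CPM in MCAO/R + WT overlapped with 18.1 to 39.6 CPM in MCAO/R + Lrg1-/-. With cells thinned to 1000 UMIs, 6.11 to 9.01% of MCAO/R + WT endothelial cells held a Pmaip1 UMI, against 2.12 to 3.15% over all the other libraries (unthinned, 31.5 to 33.7% against 13.3 to 23.6%). In oligodendrocytes at most 0.552% did. The median UMIs per endothelial cell were 6465 to 9372.5 in MCAO/R + WT and 5801 to 13253 in the others. The dissociation list in endothelial cells summed to 37800 to 40100 CPM in sham + WT, 29200 to 30300 in MCAO/R + WT, 33200 to 36500 in sham + Lrg1-/- and 19000 to 21700 in MCAO/R + Lrg1-/-, and its part in the Pmaip1 result was not tested.

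In microglia Pmaip1 was lower in Lrg1-/- than in WT mice. It was 48.7, 56.3 and 44.8 CPM in sham + WT and 49 and 53.1 CPM in MCAO/R + WT, against 18.4, 17.2 and 17 CPM in sham + Lrg1-/- and 21.7, 21.9 and 16 CPM in MCAO/R + Lrg1-/-. WT and Lrg1-/- libraries did not overlap. The log2 difference was -1.50 in the sham groups (adjusted p = 3.47e-05) and -1.38 after MCAO/R (adjusted p = 0.000112), and neither surgery comparison was called. Both calls held under every alternative. Within clusters the levels also separated by surgery in WT mice. In the MCAO/R-rich cluster plain CPM of Pmaip1 was 54 to 71.1 in sham + WT, 45.6 to 52.2 in MCAO/R + WT, 17.7 to 27.4 in sham + Lrg1-/- and 15.7 to 26.8 in MCAO/R + Lrg1-/-, and in the sham-rich one 41.9 to 51.7, 27.6 to 35.3, 16.1 to 20.2 and 13.2 to 16.8. The MCAO/R + WT libraries lay below those of sham + WT in each cluster, a difference that was not tested. The dissociation sums given for microglia differ by genotype in the same direction, and their part was not tested. In macrophages and monocytes Pmaip1 fell after MCAO/R in Lrg1-/- mice, from 88.6, 61.1 and 56.7 to 49.6, 40.7 and 28.2 CPM (log2 -0.90), a call lost without sham + Lrg1-/- replicate 1 (adjusted p = 0.103) or MCAO/R + Lrg1-/- replicate 5 (0.0502). It was also lost with cells named one by one and with 1000 UMIs per cell, where the log2 fold change was -0.104 (adjusted p = 0.911). In the macrophage cluster led by Mrc1 and Cd36 plain CPM of Pmaip1 was 51.9 to 54.3 in 2 sham + Lrg1-/- libraries and 18.8 to 19.8 in 2 MCAO/R + Lrg1-/- libraries. The dissociation sums given for macrophages fell as well. Their part, and that of the uneven split over macrophage clusters given with Bax below, was not tested. Across cell types the Pmaip1 difference of Lrg1-/- from WT after MCAO/R was negative in 9 of 9. In sham mice the endothelial level was higher in Lrg1-/- by 0.37 on the log2 scale, just past the fold limit of 0.361, and that call was lost without any of 8 libraries, at log2 differences of 0.341 to 0.409, as well as with no filter on low counts, doublets kept, cells named one by one or 1000 UMIs per cell.

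**Figure D3:**
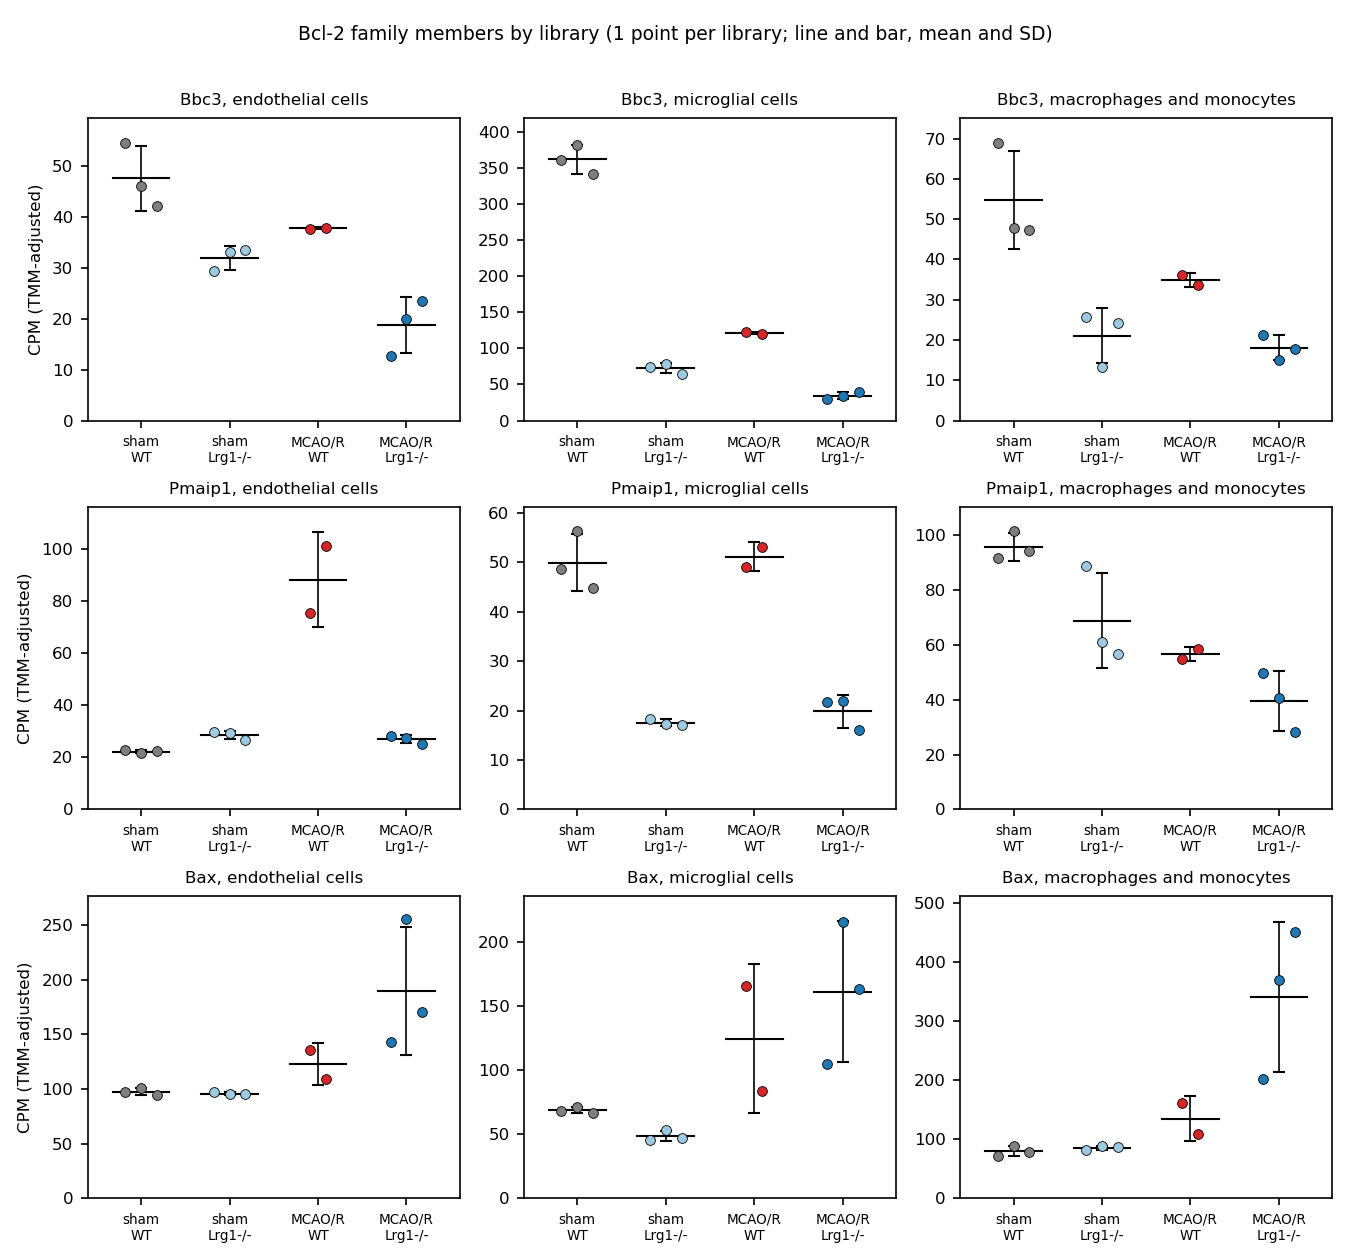
CPM of Bbc3, Pmaip1 and Bax (rows) in endothelial cells, microglia and macrophages (columns), 1 point per library, with the mean and SD of each group. Bbc3 in microglia separates all 4 groups, Pmaip1 in endothelial cells is raised in the 2 MCAO/R + WT libraries, and Bax spreads widely among the MCAO/R + Lrg1-/- libraries.

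Bax, the pore-forming member, had a positive fitted difference after MCAO/R in Lrg1-/- mice in 12 of 12 cell types, with a median log2 fold change of 0.839 and a range of 0.488 to 2.01. It was called in 7 of them, the erythroid cluster included. In macrophages and monocytes its level was 81.8, 88.6 and 87 CPM in sham + Lrg1-/- and 202, 370 and 451 CPM in MCAO/R + Lrg1-/-, a log2 fold change of 2.01 (adjusted p = 0.000572). In microglia it was 45.7, 53.4 and 46.7 against 105, 215 and 163 CPM (1.74, adjusted p = 0.000288). In endothelial cells it was 97, 95.5 and 95.1 against 143, 256 and 171 CPM (0.99, adjusted p = 0.00288). No libraries overlapped in these 3 cell types, as was so in 8 of the 12, and the 3 calls held under every alternative. Pericytes (1.01), oligodendrocytes (0.79) and vascular smooth muscle cells (0.77) were also called. The oligodendrocyte call was lost without sham + Lrg1-/- replicate 2 (adjusted p = 0.052) and with 1000 UMIs per cell (0.0544), as was the smooth muscle call with 1000 UMIs per cell (0.288). Pericytes numbered 20 to 140 in each Lrg1-/- library, and their call was lost without any of 7 libraries (0.0538 to 0.36), in a fit of those 2 groups alone, with a stricter mitochondrial limit, without cells over 1% haemoglobin, with cells named one by one and with 1000 UMIs per cell.

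In WT mice the surgery difference of Bax was positive in 10 of 13 cell types with a median log2 of 0.215, and it was called in microglia alone. The microglial levels were 67.7, 71.3 and 66.7 CPM in sham + WT and 166 and 83.3 CPM in MCAO/R + WT. The fold rested on replicate 1, without which the log2 fold change was 0.28 (adjusted p = 0.582) instead of 0.86 (adjusted p = 0.0365). The call was also lost without any sham + WT library or without sham + Lrg1-/- replicate 1 or 5 (0.0516 to 0.0909). Between the genotypes after MCAO/R, the fitted Bax difference was positive in 11 of 13 cell types and called, as higher in Lrg1-/-, in 6, with 162 and 108 CPM in MCAO/R + WT macrophages against the values above (1.34). Choroid plexus epithelial cells had 64.6 and 38.1 CPM in MCAO/R + WT and 128, 124 and 110 CPM in MCAO/R + Lrg1-/- (1.19), a call lost with 1000 UMIs per cell (adjusted p = 0.119). These cells numbered 28 to 110 in each MCAO/R + WT library, against 1342 to 2071 in each MCAO/R + Lrg1-/- library. The Casp4 and Ripk1 calls in choroid plexus cells below rest on the same libraries. The endothelial (0.64), oligodendrocyte (0.73), pericyte (0.78), vascular smooth muscle (0.64) and macrophage calls were each lost without MCAO/R + WT replicate 2, with adjusted p = 0.225, 0.122, 0.107, 0.118 and 0.0673 in that order. The endothelial call was also lost without MCAO/R + WT replicate 1 or replicate 2 of either Lrg1-/- group (0.0518 to 0.0723), with a log2 difference of 0.34 without MCAO/R + Lrg1-/- replicate 2. The pericyte call was lost without that library too, at 0.507 (adjusted p = 0.329), and in 4 other settings. In a fit of the 2 MCAO/R groups alone the endothelial, oligodendrocyte, pericyte and smooth muscle calls were lost, and the smooth muscle call also with 1000 UMIs per cell. The interaction was positive in 11 of 11 cell types with a median of 0.74, but it was called in none by edgeR, where 7 had an unadjusted p under 0.05. Between the sham groups it was called in none of 12, and 1 had an unadjusted p under 0.05.

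Bax was also compared within clusters. In the MCAO/R-rich microglial cluster plain CPM was 127 to 206 in MCAO/R + Lrg1-/- and 56.1 to 94.3 in sham + Lrg1-/-, and in the sham-rich one 72.6 to 114 and 45.1 to 48.2. The macrophages were divided unevenly, because 1515 of 1761 MCAO/R + Lrg1-/- cells were in a cluster led by Arg1 and Chil3, while most cells of the other groups were in a cluster led by Mrc1 and Cd36. In the Mrc1 cluster Bax was 238 to 252 CPM in 2 MCAO/R + Lrg1-/- libraries, 102 to 160 in MCAO/R + WT and 65.1 to 68.2 in sham + Lrg1-/-.

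Casp8 was called in 1 cell type in each of 3 comparisons. Its microglial level was 97.1, 102 and 102 CPM in sham + WT and 76 and 66.7 CPM in MCAO/R + WT, without overlap, a log2 fold change of -0.49 ± 0.13 (adjusted p = 0.0186). The call was lost without sham + WT replicate 2 or 3 or MCAO/R + WT replicate 2 (adjusted p = 0.0626, 0.0633 and 0.0914). In Lrg1-/- microglia the levels were 93, 108 and 96.7 CPM after sham and 97.6, 79 and 78.2 CPM after MCAO/R, which overlap. In endothelial cells Casp8 was between 43.6 and 58.2 CPM in all 11 libraries and was not called in any comparison.

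The other Casp8 calls were in oligodendrocytes, where levels were lowest. There it was 3.86 and 2.44 CPM in MCAO/R + WT and 10.9, 10.4 and 12.4 CPM in MCAO/R + Lrg1-/-, without overlap (log2 difference 1.86, adjusted p = 0.000561), and 4.44, 3.01 and 3.27 against 7.93, 9.75 and 6.18 CPM in the sham groups (1.18). The first held under every alternative, at 1.19 with doublets kept. The second was lost without replicate 1 or 2 of sham + Lrg1-/- or replicate 2 or 3 of sham + WT (adjusted p = 0.064 to 0.0816), without cells over 1% haemoglobin, with cells named one by one (log2 0.769) and with 1000 UMIs per cell (adjusted p = 0.521). Microglial transcripts moved with it. All 8 genes of that list were higher in MCAO/R + Lrg1-/- than in MCAO/R + WT oligodendrocytes, with sums of 1680 to 4210 against 633 to 946 CPM, and 3 of 8 were higher in the sham groups, at 1240 to 1780 against 634 to 964 CPM, beside 29.3% and 11.8% of all genes called. Casp8 was itself highest in microglia, and the part of microglial RNA in its oligodendrocyte difference was not tested. A cluster of few UMIs (median 3086 per cell) held 3168 of 4577 MCAO/R + Lrg1-/- oligodendrocytes, whereas another held 2568 of 3140 MCAO/R + WT cells. Within the former Casp8 was 14.6 to 20.5 against 4.79 to 7.89 CPM, and within the latter 4.91 to 6.67 against 2.28 to 3.82 CPM. The sham groups overlapped within both clusters, at 11.8 to 22.5 CPM in sham + Lrg1-/- against 10.1 to 22.9 CPM in sham + WT in the former and 1.28 to 3.69 against 2.51 to 3.12 CPM in the latter. Of the sham + Lrg1-/- cells 421 were in the former and 254 in the latter, against 499 and 2404 of the sham + WT cells, and the part of this split in the sham difference was not tested.

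Casp4, the caspase of the noncanonical inflammasome, was lower in microglia and macrophages of MCAO/R + Lrg1-/- mice than in those of MCAO/R + WT and of sham + Lrg1-/- mice. In microglia it was 625, 691 and 730 CPM in sham + WT, 521 and 757 CPM in MCAO/R + WT, 528, 595 and 540 CPM in sham + Lrg1-/- and 242, 223 and 294 CPM in MCAO/R + Lrg1-/-. The last group overlapped with none of the others. The log2 difference was -1.13 from sham + Lrg1-/- (adjusted p = 0.000165) and -1.34 from MCAO/R + WT (adjusted p = 0.000218), and both held under every alternative. The dissociation sums given for microglia were also lowest in this group, at 12400 to 16400 against 19000 to 38600 CPM elsewhere, and their part was not tested. The interaction was -1.04 ± 0.23 (adjusted p = 0.0190, edgeR), but it was lost when the cells were named one by one, and without sham + Lrg1-/- replicate 2 (0.0595), sham + WT replicate 1 (0.0574) or 2 (0.0534), or MCAO/R + WT replicate 2 (0.0849). It was 1 of 9 members called in the microglial interaction, where 8.28% of all genes were.

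Both microglial clusters showed the difference after MCAO/R. In the MCAO/R-rich cluster plain CPM of Casp4 was 201 to 284 in MCAO/R + Lrg1-/- against 472 to 733 in MCAO/R + WT and 384 to 586 in sham + Lrg1-/-, and in the other 419 to 609 against 749 to 936 and 616 to 672. Macrophage and monocyte Casp4 was 453, 398 and 452 CPM in sham + WT, 384 and 499 in MCAO/R + WT, 316, 335 and 148 in sham + Lrg1-/- and 162, 90.9 and 91.1 in MCAO/R + Lrg1-/-. The log2 difference of the last group was -1.98 from MCAO/R + WT, without overlap, and -1.27 from sham + Lrg1-/-, where 148 and 162 CPM overlap. In the Mrc1 cluster the values were 200 to 287 CPM in 2 MCAO/R + Lrg1-/- libraries against 427 to 564 in MCAO/R + WT, and in the Arg1 cluster 54.9 to 69.7 against 220 in the only MCAO/R + WT library with enough cells. The uneven split between these clusters and the dissociation sums given above move with Casp4 in macrophages, and their part was not tested. Choroid plexus epithelial cells also had less Casp4 after MCAO/R in Lrg1-/- mice (28.6 and 50.9 against 9.85, 10.1 and 19.8 CPM, log2 -1.55), a call lost without either MCAO/R + WT library or without MCAO/R + Lrg1-/- replicate 1 or 2 (adjusted p = 0.0523 to 0.235), with doublets kept, and with 1000 UMIs per cell, where the log2 difference was -0.832 (0.747). The only higher call was in sham + Lrg1-/- pericytes (1.59), where the 3 libraries gave 8, 18 and 0 UMIs, and without replicate 2 the log2 difference was 0.574 (adjusted p = 0.68). It was lost without 5 other libraries as well (0.0503 to 0.0999), with doublets kept, with cells named one by one and with 1000 UMIs per cell.

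For Gsdmd, the target of that caspase, the surgery comparisons gave no call by edgeR, where 2 of 12 cell types in WT and 0 of 11 in Lrg1-/- mice had an unadjusted p under 0.05. In microglia it was 54.4, 57.8 and 55.8 CPM in sham + WT, 43 and 46.6 in MCAO/R + WT, 37.4, 41.6 and 47.8 in sham + Lrg1-/- and 31.6, 41.1 and 37.2 in MCAO/R + Lrg1-/-. Of the comparisons, the one between the sham groups was called (-0.42), and it was lost without sham + Lrg1-/- replicate 1 (adjusted p = 0.16) or 2 (0.0782) or sham + WT replicate 2 (0.0785) or 3 (0.0649), in a fit of the sham groups alone, without cells over 1% haemoglobin and with 1000 UMIs per cell. The higher Gsdmd calls were in cell types where it was scarce. In choroid plexus epithelial cells it was 2.56, 2.45 and 1.59 CPM in sham + WT and 7, 12.9 and 22 CPM in sham + Lrg1-/- (2.60), beside microglial transcripts of 996 to 1210 and 2730 to 5680 CPM, and with cells named one by one the log2 difference was 1.18. In oligodendrocytes it was 1.96 and 1.38 CPM in MCAO/R + WT and 3.51, 5.35 and 5.01 CPM in MCAO/R + Lrg1-/- (1.53), beside the microglial sums given for Casp8, and the call was lost without MCAO/R + WT replicate 2 (adjusted p = 0.0792). With doublets kept the log2 difference was 0.889. The part of microglial RNA in either was not tested.

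**Figure D4:**
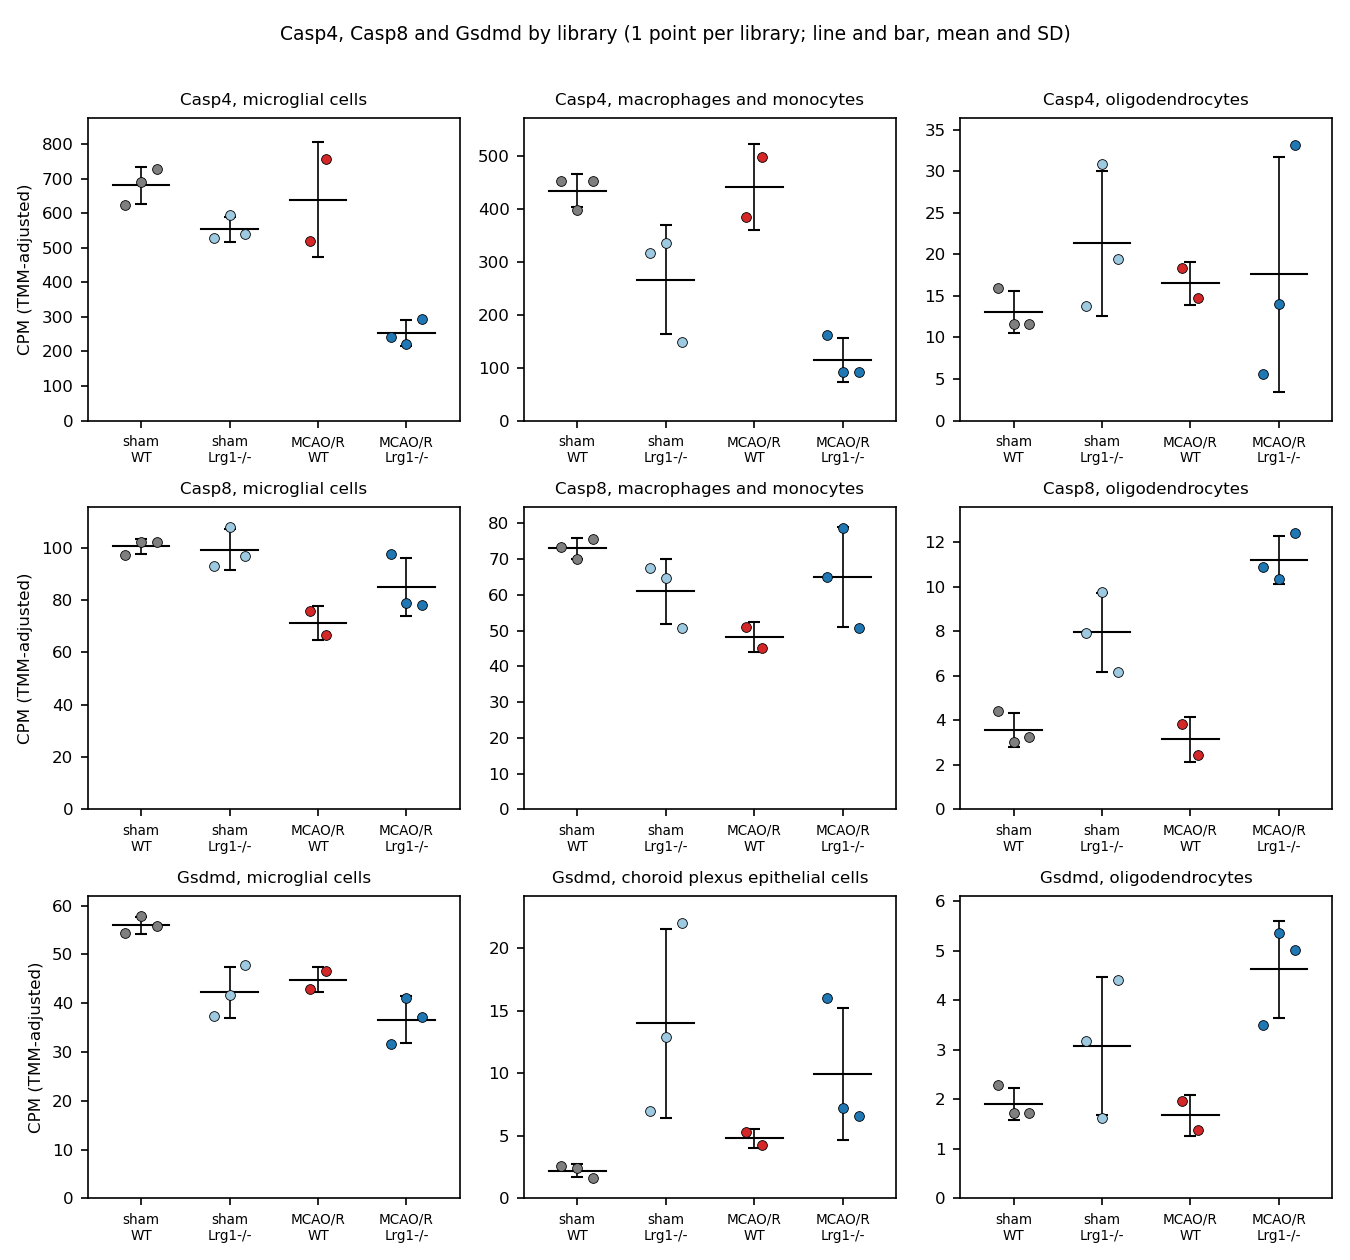
CPM of Casp4, Casp8 and Gsdmd (rows) in the cell types named above each panel, 1 point per library, with the mean and SD of each group. Casp4 is lowest in all 3 MCAO/R + Lrg1-/- microglial libraries, at 223 to 294 CPM, while Casp8 in oligodendrocytes and Gsdmd in choroid plexus cells reach their highest levels in Lrg1-/- groups.

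Ripk1, the scaffold kinase upstream of both apoptosis and necroptosis, was lower in endothelial and vascular smooth muscle cells of Lrg1-/- mice. In pericytes the fitted log2 difference between genotypes was 0.64 in sham mice and 0.40 after MCAO/R, and neither was called. In endothelial cells it was 140, 107 and 122 CPM in sham + WT, 143 and 125 in MCAO/R + WT, 88.2, 82 and 77.2 in sham + Lrg1-/- and 69.4, 80.5 and 84.1 in MCAO/R + Lrg1-/-. WT and Lrg1-/- libraries did not overlap, and the log2 difference was -0.58 in sham mice and -0.78 after MCAO/R (adjusted p = 0.00136). The latter held under every alternative, and the former was lost only with 1000 UMIs per cell. In vascular smooth muscle cells it was 251, 225 and 214 CPM in sham + WT, 154 and 205 in MCAO/R + WT, 143, 138 and 119 in sham + Lrg1-/- and 127, 108 and 108 in MCAO/R + Lrg1-/-, with log2 differences between genotypes of -0.77 and -0.67. The first was lost only with 1000 UMIs per cell and the second also without MCAO/R + WT replicate 2 (adjusted p = 0.097). In choroid plexus epithelial cells Ripk1 was 20.6 and 28.3 CPM in MCAO/R + WT and 11.1, 14.4 and 13.6 CPM in MCAO/R + Lrg1-/- (-0.87), lost without either MCAO/R + WT library or MCAO/R + Lrg1-/- replicate 1 (0.0544 to 0.199), with no filter on low counts, in a fit of those 2 groups alone, and with 1000 UMIs per cell, where the log2 difference was -0.332 (adjusted p = 0.905). Neither surgery comparison was called in these cells. The dissociation sums in vascular smooth muscle cells were 31800 to 34300 CPM in sham + WT, 33600 to 34800 in MCAO/R + WT, 29600 to 30200 in sham + Lrg1-/- and 25400 to 28900 in MCAO/R + Lrg1-/-. They were lower in Lrg1-/- libraries without overlap, as were those given for endothelial cells within each surgery, and their part in the Ripk1 difference was not tested.

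Ripk1 in oligodendrocytes was called higher in both comparisons with sham + WT. It was 22.3, 22.4 and 20.9 CPM in sham + WT, 30 and 41.2 in MCAO/R + WT, 29.1, 35.8 and 42.3 in sham + Lrg1-/- and 40.3, 40.8 and 45.4 in MCAO/R + Lrg1-/-, so that sham + WT lay below all the others, and neither comparison with MCAO/R + Lrg1-/- was called. The log2 difference was 0.71 ± 0.15 after MCAO/R in WT mice (adjusted p = 0.00412) and 0.66 between the sham groups. The first was lost without MCAO/R + WT replicate 2 (log2 0.436, adjusted p = 0.115), and the second without replicate 2 or 5 of sham + Lrg1-/- or replicate 2 or 3 of sham + WT (0.0503 to 0.0705). With 1000 UMIs per cell both calls were lost, at log2 differences of 0.398 and 0.44 (adjusted p = 0.263 and 0.431). In the oligodendrocyte cluster of few UMIs, described with Casp8 above, plain CPM of Ripk1 overlapped between the sham groups, at 33.7 to 42.4 in sham + Lrg1-/- and 29.3 to 54.7 in sham + WT, and in the other cluster it did not, at 24.5 to 55.4 against 20.3 to 21.7. The uneven split of the sham groups over these clusters moved with Ripk1, and its part was not tested. The dissociation sums in oligodendrocytes were 3020 to 3780 CPM in sham + WT, below 4600 to 5340 in MCAO/R + WT, 5690 to 8210 in sham + Lrg1-/- and 4700 to 7360 in MCAO/R + Lrg1-/-, and their part was not tested either. In microglia Ripk1 stayed between 74.5 and 106 CPM over the 11 libraries and was not called.

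Ripk3, the kinase that commits cells to necroptosis, was higher after MCAO/R in Lrg1-/- mice in 7 of 7 cell types by fitted value, and 4 were called, the erythroid cluster included. In microglia it was 3.4, 1.94 and 2.22 CPM in sham + Lrg1-/- and 8.36, 15.5 and 8.05 CPM in MCAO/R + Lrg1-/-, without overlap (log2 2.06, adjusted p = 0.00836), and the call held under every alternative. The WT libraries were at 4.15, 3.91 and 3.79 CPM after sham and 10.9 and 2.4 CPM after MCAO/R, where the pair of stroke libraries lie on either side of the sham ones. In macrophages and monocytes it was 0.676, 7.19 and 18.2 CPM in sham + Lrg1-/-, which overlap with the 16.5, 36.8 and 25.3 CPM of MCAO/R + Lrg1-/- (2.12, adjusted p = 0.0256), and 6.46 and 2.63 CPM in MCAO/R + WT, which do not (2.49). The first was lost without sham + Lrg1-/- replicate 1 (log2 1.24, adjusted p = 0.129) or 2 (0.0767) or MCAO/R + Lrg1-/- replicate 2 (0.113), in a fit of those 2 groups alone, or with cells named one by one (0.133), and was 3.29 with at least 50 cells per library, and the second without MCAO/R + WT replicate 2 (0.0664). In the Arg1 macrophage cluster Ripk3 was 23 to 36.1 CPM in MCAO/R + Lrg1-/- and in the Mrc1 cluster 9.41 to 15.9 CPM, so that the uneven split moved with this result too. Its part was not tested.

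Endothelial Ripk3 was 0.688, 1.17 and 2.17 CPM in sham + Lrg1-/- and 3.21, 3.96 and 1.81 CPM in MCAO/R + Lrg1-/- (1.30, adjusted p = 0.0460), which overlap, and the call was lost without any library other than replicate 5 of either Lrg1-/- group (0.0509 to 0.228), in a fit of those 2 groups alone and without cells over 1% haemoglobin. Oligodendrocytes had 0.506 and 0.0815 CPM in MCAO/R + WT and 1.4, 2.09 and 1.44 CPM in MCAO/R + Lrg1-/- (2.74), beside the microglial transcripts given for Casp8, and the call was lost without MCAO/R + WT replicate 2 (log2 1.69, adjusted p = 0.187), while without replicate 1 the log2 difference was 4.19. After MCAO/R in WT mice the fitted Ripk3 difference was also positive, in 6 of 6 cell types (median log2 1.24, range 0.641 to 2.78, the highest in the erythroid cluster). It was called in 0 of the 6 by edgeR, 1 of them with an unadjusted p under 0.05. The interaction was called in 0 of 6, none of them with an unadjusted p under 0.05.

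Mlkl, the membrane-rupturing substrate of Ripk3, passed the filter on low counts in 6 cell types. Its fitted difference after MCAO/R in Lrg1-/- mice was positive in all 6 and called in 2. In WT mice that of Mlkl was positive in 5 of 6 and called in 1, with a median log2 of 1.01 against 0.96 in Lrg1-/- mice. In endothelial cells it was 7.76, 8.07 and 5.35 CPM in sham + Lrg1-/- and 13, 18.2 and 10.7 CPM in MCAO/R + Lrg1-/-, without overlap (0.99, adjusted p = 0.0128). The WT endothelial levels were 11.3, 13.1 and 11.5 CPM after sham and 14.2 and 9.41 CPM after MCAO/R, so that the sham + Lrg1-/- group was the low one, by -0.74 from sham + WT. That sham call was lost without any of the 6 sham libraries (adjusted p = 0.0676 to 0.15), without cells over 1% haemoglobin and with 1000 UMIs per cell (log2 -0.392, adjusted p = 0.719). The surgery call was lost without MCAO/R + Lrg1-/- replicate 2 (0.0761) and with 1000 UMIs per cell (0.257). In microglia Mlkl was 0.309, 0.387 and 1.48 CPM against 3.13, 2.87 and 1.98 CPM (2.14, adjusted p = 0.0169), lost without sham + Lrg1-/- replicate 1 (0.105) or 2 (0.0874) and with 1000 UMIs per cell, where the log2 fold change was 0.536 (adjusted p = 0.718). In oligodendrocytes it rose after MCAO/R in WT mice, from 8.51, 6.66 and 5.57 to 10.7 and 12.3 CPM (0.73 ± 0.22, adjusted p = 0.0264), a call lost without either MCAO/R + WT library or without sham + WT replicate 2 or 3 (0.0615 to 0.186), and with 1000 UMIs per cell, where the log2 fold change was 0.251 (adjusted p = 0.787).

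**Figure D5:**
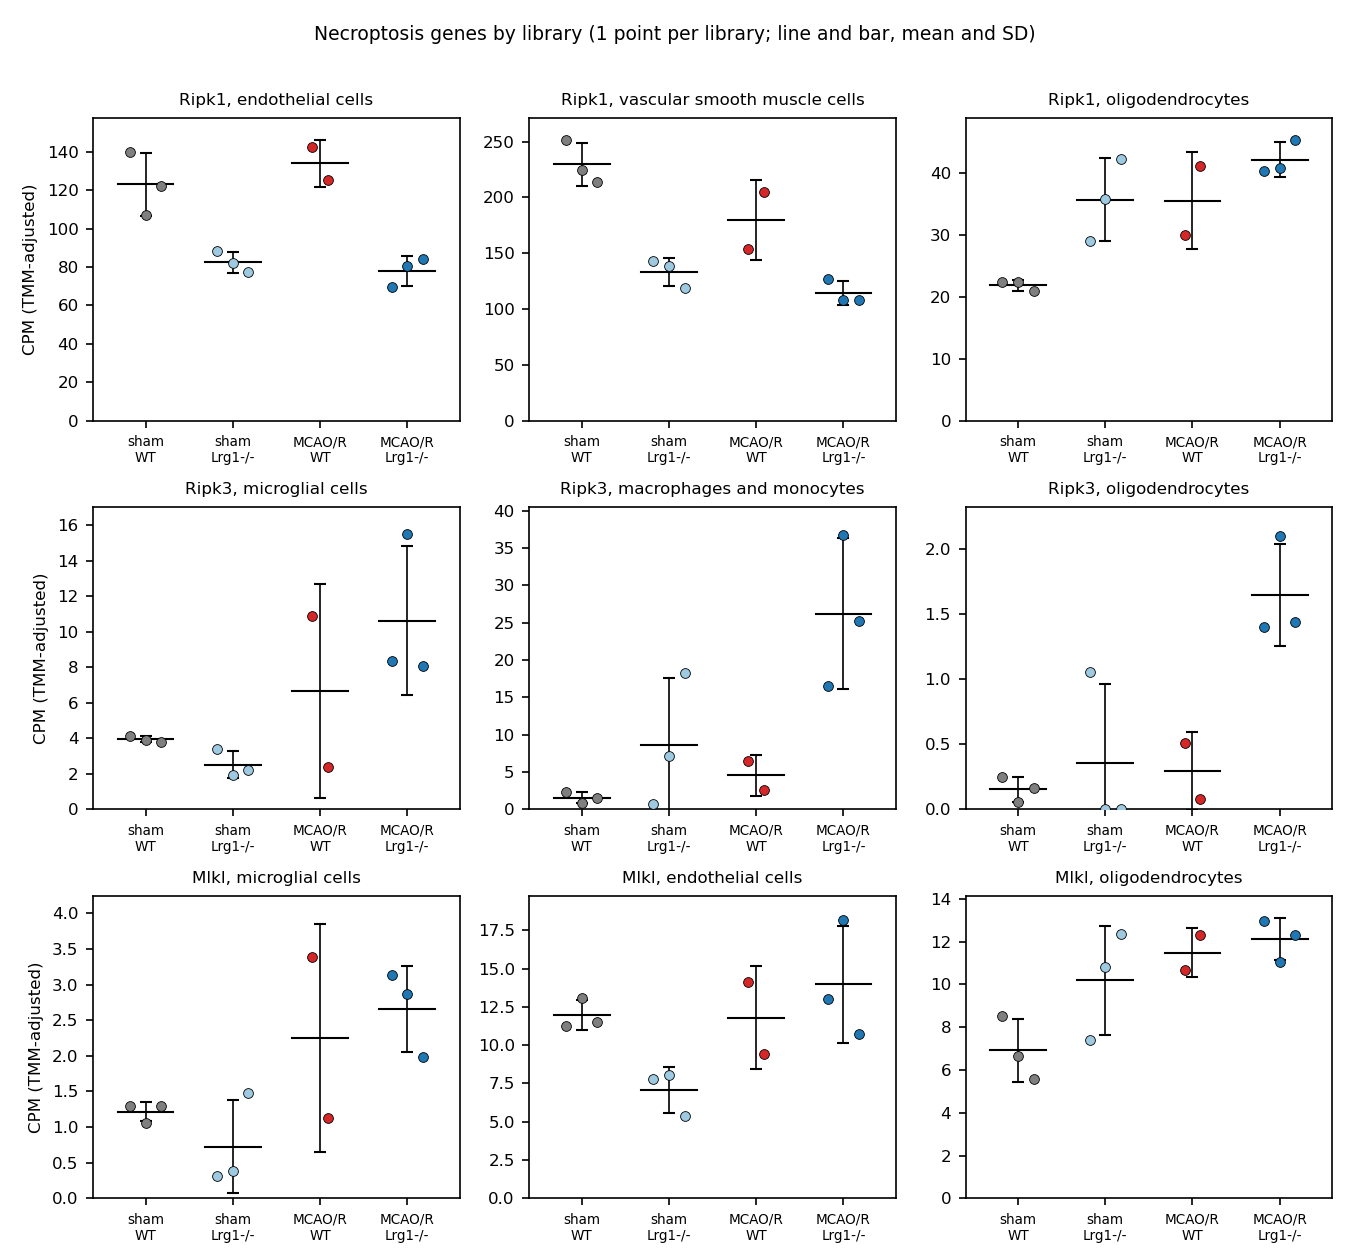
CPM of Ripk1, Ripk3 and Mlkl (rows) in the cell types named above each panel, 1 point per library, with the mean and SD of each group. Ripk1 in endothelial and smooth muscle cells separates by genotype, and Ripk3 in microglia is 8.05 to 15.5 CPM in MCAO/R + Lrg1-/- libraries against 1.94 to 3.4 CPM in sham + Lrg1-/-.

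Counted by cell type, 3 of 9 members were called in microglia after MCAO/R in WT mice, where 21.2% of all genes were, and 5 of 9 in Lrg1-/- mice, where 35.8% were. The genotype comparisons called 3 of 9 microglial members each, against 20.4% of all genes after MCAO/R and 22.2% in sham mice. Among macrophages and monocytes 4 of 9 were called after MCAO/R in Lrg1-/- mice and 4 between genotypes after MCAO/R, against 24.7% and 31.4%, and 1 in the sham comparison, against 2.10%. In endothelial cells 4 of 9 were called in each of the other 3 comparisons, MCAO/R in Lrg1-/- mice, the genotypes after MCAO/R and the sham groups, against 18.2%, 23.3% and 17.5%. In oligodendrocytes the counts were 2 after MCAO/R in WT mice, 1 in Lrg1-/- mice, 4 between genotypes after MCAO/R and 2 in sham mice, against 22.8%, 14.0%, 29.3% and 11.8%. Each count differs from the background share of 9 genes by fewer than 3 calls.

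Among anti-apoptotic Bcl2 genes every call after MCAO/R was a rise, in WT as in Lrg1-/- mice. Of 7 listed, 6 were higher and none lower in microglia of each genotype, with median log2 fold changes of 0.82 in WT and 1.59 in Lrg1-/- mice, where 21.2% and 35.8% of all genes were called. Bcl2a1d, a short-lived survival gene of leukocytes, rose by 2.29 ± 0.16 and 2.78 ± 0.17 on the log2 scale there. In endothelial cells and in oligodendrocytes 5 of 7 were higher in each genotype, beside 17.3% and 18.2% of all genes in WT and Lrg1-/- endothelial cells and 22.8% and 14.0% in oligodendrocytes. Endothelial Bcl2l1, which encodes Bcl-xL, rose by 1.47 ± 0.14 in WT mice (adjusted p = 3.94e-05, edgeR). Over all cell types 26 of 84 pairs were called in WT and 26 of 79 in Lrg1-/- mice, every one of them higher, beside the 9.03% and 12.3% of all genes. The genes of the Bcl2a1 family are near-identical copies, so reads may be split between them.

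Other pro-apoptotic Bcl2 genes were mixed. Between the genotypes after MCAO/R, Bmf, another BH3-only gene, was lower in microglia (-2.47 ± 0.31) and in macrophages (-2.89 ± 0.40), as Bbc3 was, while 1 other of the 10 listed genes in microglia and 1 other of 8 tested in macrophages were called, both higher (Bik and Bak1), beside 20.4% and 31.4% of all genes. In microglia of Lrg1-/- mice 4 of 10 rose after MCAO/R, where 35.8% of all genes were called. Bak1 rose the most of the 4 (1.51 ± 0.23), which encodes the other pore-forming effector beside Bax. Of the apoptosome and executioner caspase list 14 of 193 pairs were called after MCAO/R in WT (7.25%) and 15 of 186 in Lrg1-/- mice (8.06%), beside 9.03% and 12.3% of all genes.

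Targets of p53 include Bbc3, Pmaip1 and Bax in textbook accounts, and the list leaves them out. In endothelial cells 3 of 19 rose in WT mice after MCAO/R and none fell, where 17.3% of all genes were called. The largest of the 3 was Trp53inp1 (2.91 ± 0.14, adjusted p = 2.54e-07, edgeR), and its interaction was -1.78 ± 0.19 (adjusted p = 0.00104, edgeR). Trp53inp1, like Pmaip1, was lower in MCAO/R + Lrg1-/- than in MCAO/R + WT endothelial cells (-2.16 ± 0.14). Of the 19 targets 1 was higher and 5 were lower between those groups, where 23.3% of all genes were called, with a median of 0.107, beside 0.0453 for all genes. In microglia 5 rose and 1 fell of 18 in WT mice and 8 rose and 1 fell in Lrg1-/- mice, beside 21.2% and 35.8% of all genes called there. Cdkn1a, the cell cycle inhibitor, rose in microglia by 1.87 ± 0.23 in WT. In oligodendrocytes Cdkn1a rose by 5.72 ± 0.34 in WT and 2.85 ± 0.32 in Lrg1-/- mice. Over all cell types 29 pairs of this list were higher and 3 lower of 212 after MCAO/R in WT mice (15.1%, beside 9.03% of all genes). In Lrg1-/- mice 28 were higher and 8 lower of 200 (18.0%, beside 12.3%). Between the genotypes 8 were higher and 30 lower of 212 after MCAO/R (17.9%, beside 15.5%), and 7 higher and 14 lower of 200 in sham mice (10.5%, beside 11.0%). The interaction called 2 higher and 10 lower of 187 (6.42%, beside 1.57%).

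The integrated stress response list, which holds the factors that act on Bbc3 and Pmaip1 under endoplasmic reticulum stress, had 7 of 11 genes higher and 1 lower in WT microglia after MCAO/R and 6 higher and 1 lower in Lrg1-/- microglia, beside 21.2% and 35.8% of all genes. Between the genotypes after MCAO/R none was higher and 5 were lower in microglia, where 20.4% of all genes were called, led by Ddit4 (-2.78 ± 0.33) and Ppp1r15a (-2.22 ± 0.15), and Ppp1r15a was also lower in sham mice (-2.56 ± 0.15). Ppp1r15a is also an immediate stress gene, and the dissociation sums given for microglia differ the same way. In macrophages 4 of 9 were lower and none higher between the genotypes after MCAO/R, beside 31.4% of all genes.

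Of the death receptor genes, Fas rose in endothelial cells of WT mice (1.72 ± 0.11, adjusted p = 2.15e-06) and its interaction was -0.76 ± 0.16 (adjusted p = 0.0369, edgeR), and the receptor gene Tnfrsf1a rose by 1.23 ± 0.19 in WT and 0.98 ± 0.18 in Lrg1-/- mice. The ligand gene Tnfsf10 fell there, by 2.10 in WT and 1.81 in Lrg1-/- mice on the log2 scale. In microglia Fas rose by 1.30 ± 0.24 in WT mice and Tnf by 1.12 ± 0.24, and Tnf by 2.10 ± 0.23 in Lrg1-/- mice. Over all cell types 14 pairs of this list were higher and 3 lower of 109 after MCAO/R in WT mice (15.6%, beside 9.03% of all genes). In Lrg1-/- mice 18 were higher and 3 lower of 107 (19.6%, beside 12.3%). The interaction called 1 higher and 1 lower of 97 (2.06%, beside 1.57%).

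Among necroptosis partners, Zbp1, a nucleic acid sensor that binds Ripk3, rose in microglia of both genotypes (3.38 ± 0.64 in WT and 1.99 ± 0.69 in Lrg1-/- mice), and Tlr4 in endothelial cells (1.39 ± 0.27 and 1.33 ± 0.26). Tnfaip3, a ubiquitin-editing brake on this pathway, was lower in Lrg1-/- microglia (-1.01 ± 0.14 in sham mice and -1.56 ± 0.16 after MCAO/R). Over all cell types 15 of 151 pairs of this list were called after MCAO/R in WT and 15 of 145 in Lrg1-/- mice, beside the 9.03% and 12.3% of all genes.

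Among inflammasome partners, Nlrp3 (1.80 ± 0.17) and Il1b (1.56 ± 0.48) rose in WT microglia after MCAO/R and Il1b (1.65 ± 0.46) in Lrg1-/- microglia. The Nlrp3 interaction in microglia was -1.003 ± 0.23 and that of Pycard, the adaptor of the inflammasome, 1.25 ± 0.25. Aim2, a DNA sensor, was lower in Lrg1-/- than in WT microglia after MCAO/R (-1.09 ± 0.13), and the guanylate-binding protein gene Gbp5, which acts in Casp4 activation, was lower there (-1.83 ± 0.29) and in sham mice (-2.40 ± 0.29). Most genotype calls of this list over all cell types were nonetheless higher in Lrg1-/- mice. After MCAO/R 30 were higher and 13 lower of 194 pairs (22.2%, beside 15.5% of all genes). In sham mice 22 were higher and 5 lower of 180 (15%, beside 11.0%). The list of microglial transcripts moved the same way over all cell types. After MCAO/R 45 of its pairs were higher and 2 lower of 104 (45.2%), and in sham mice 28 higher and 3 lower of 96 (32.3%). The part of microglial RNA in the inflammasome calls was not tested. Endothelial Nek7, a partner of Nlrp3, rose by 2.69 ± 0.20 in WT mice with an interaction of -1.79 ± 0.26. The interferon list, whose factors act on Casp4, Gbp5 and Mlkl, had 10 of 18 genes lower and none higher in sham + Lrg1-/- than in sham + WT microglia, led by Ifit2 (-5.54 ± 0.46), beside 22.2% of all genes. After MCAO/R 5 were lower and none higher, beside 20.4%. Over all cell types the interferon calls were mixed. Between the sham groups 15 were higher and 14 lower of 212 pairs (13.7%, beside 11.0% of all genes). Between the genotypes after MCAO/R 10 were higher and 10 lower of 224 (8.93%, beside 15.5%).

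The genes whose levels followed each member most closely over the 16 cell types were ranked by Pearson's r of log2(mean CPM + 1), given as a description over cell types that share the same 11 libraries. For Casp4 they were Skil (0.967), Rnf19b (0.955) and Mapkapk2 (0.936), for Casp8 B2m (0.969), Tpst2 (0.96) and Crlf2 (0.943), and for Gsdmd Dhx58 (0.955), Cmtm6 (0.947) and Lgals9 (0.946). For Bbc3 they were Cdh23 (0.882), Cx3cr1 (0.873) and Ptrh2 (0.867), for Pmaip1 Sp140 (0.959), Gch1 (0.951) and Coro2a (0.944), and for Bax Ssr2 (0.814), Rpl7l1 (0.8) and Ppib (0.782). For Ripk1 they were Rassf1 (0.917), Rock2 (0.889) and Stat3 (0.886), for Ripk3 Arhgdib (0.897), Cyba (0.892) and Gpsm3 (0.879), and for Mlkl Gatm (0.814), Pde8a (0.807) and Xaf1 (0.802). Bax and Mlkl had the weakest matches.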

How the data were processed

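The deposited files hold raw UMI counts per gene and barcode, which the authors made with Cell Ranger (version 7.0.1 in the matrix headers, and another release in the study's methods) from 3′ libraries. The submitters' processing notes name STAR and mm10. Cells with over 500 genes, over 1000 UMIs and under 25% mitochondrial UMIs were kept. A doublet score from simulated doublets used an automatic threshold in 5 libraries and the top 6% in 6 where that threshold failed. Cells were clustered (15 principal components, 2000 variable genes) and named from marker lists. UMIs were summed per library and cell type (at least 20 cells) and fitted over all 4 groups with edgeR 4.0.16 (quasi-likelihood, TMM, R 4.3.3), with p-values adjusted over all genes of the cell type. With 11 libraries from 11 mice, p-values measure the spread between mice and their libraries. On simulated endothelial counts, 56.6% of genes changed by 1 on the log2 scale, 83.7% of those changed by 2 and 0.074% of unchanged genes were called, over 16420 genes. Only 99 genes were changed by 1 and 98 by 2, whereas 17.3% of endothelial genes were called after MCAO/R in WT mice. The counts were drawn with dispersions estimated from these data, so the rates need not hold for the calls. Barcode numbers were round in 4 libraries (15500, 9000, 5650 and 8500), all Lrg1-/-, whose lowest UMIs per barcode were 551 to 770 against 500 elsewhere. The alternatives were RLE size factors, DESeq2 1.42.0, no filter on low counts, fits of the 2 groups alone, the replicate block, other cell filters, cells named one by one, 1000 UMIs per cell and omission of each library.

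The 9 genes and the 16 gene lists were chosen with earlier results of these data known. All 9 members are named. Of each list at most the 3 called genes with the largest fold change in a cell type are named, and for likeness the 3 best genes of each member among those of at least 10 CPM in a cell type. The fitted values named for other genes are from the same fits.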

Additional observations from a re-analysis of the deposited data

Results flagged for a closer look

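The response to MCAO/R differed between genotypes, by the interaction term of the edgeR fit, for 2 of the 85 gene and cell type pairs tested, beside 1.57% of all genes. Endothelial Pmaip1 had an interaction of -2.07 on the log2 scale, with a response of 1.99 in WT mice and -0.08 in Lrg1-/- mice. The latter pools the endothelial clusters. In the cluster led by Lcn2 and Lrg1 the MCAO/R + Lrg1-/- libraries lay above those of sham + Lrg1-/-. Microglial Casp4 had an interaction of -1.04, with a response of -1.13 in Lrg1-/- mice and no call in WT mice, and the interaction call was lost without any of 4 libraries and with cells named one by one.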

How the results depend on the processing

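No call of the 9 genes reversed in sign under any alternative tried. Of 724 comparisons of a call with an alternative setting that could test it, 637 kept it and 87 lost it, and with 1 library left out 623 of 748 kept it and 125 lost it. RLE size factors and DESeq2 kept all 68 calls, thinning to 1000 UMIs per cell kept 30 of 61, and naming cells one by one kept 51 of 65. The count between MCAO/R + Lrg1-/- and MCAO/R + WT was 23, 12 with 1000 UMIs per cell and 12 to 26 with 1 library left out. That between MCAO/R + Lrg1-/- and sham + Lrg1-/- was 21, and 12 to 23 with 1 left out. That between MCAO/R + WT and sham + WT was 7, 14 with no filter on low counts, 12 when fitted on those 2 groups, and 3 to 9 with 1 left out. The sham comparison gave 15, 4 with 1000 UMIs per cell, and 5 to 17 with 1 left out. The interaction gave 2, 6 with no filter, 4 with at least 50 cells per library, and 1 to 5 with 1 left out. The count between genotypes after MCAO/R was lowest without MCAO/R + WT replicate 2, and that of MCAO/R in Lrg1-/- mice without sham + Lrg1-/- replicate 2. The count of MCAO/R in WT mice was 3 without sham + WT replicate 2 and 4 without MCAO/R + WT replicate 1. The sham count was 5 without sham + Lrg1-/- replicate 2, 7 without sham + WT replicate 2, and 9 without sham + Lrg1-/- replicate 1, sham + WT replicate 1 or sham + WT replicate 3. The interaction count was 1 without sham + Lrg1-/- replicate 2, sham + WT replicate 1 or 2, or MCAO/R + WT replicate 2, and 5 without replicate 1 of either MCAO/R group.

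With the replicate block the sham count was 9 and the interaction count 1, and 51 of 68 calls were kept. The 17 lost were those of MCAO/R in WT mice for Casp8 and Bax in microglia and Mlkl in oligodendrocytes, of MCAO/R in Lrg1-/- mice for Ripk3 in macrophages and endothelial cells and Bax in pericytes, of the genotypes after MCAO/R for Ripk3 in macrophages, Bax in endothelial cells and Bbc3 in neurons, of the sham groups for Gsdmd in microglia and choroid plexus cells, Mlkl and Pmaip1 in endothelial cells, Casp4 in pericytes and Casp8 and Ripk1 in oligodendrocytes, and the microglial Casp4 interaction. Replicate numbers are shared by the groups, but the correlation of same-numbered samples was from -0.285 to 0.185 in the 3 largest cell types, so the numbers were not taken to pair the mice. RLE scaling moved the median of all genes by over 0.1 only in erythroid cells and in microglia after MCAO/R in Lrg1-/- mice (-0.113). The causes of these differences were not tested. Leaving out erythroid cells was chosen after seeing the data. The member counts under the alternatives have no share of all genes beside them. Low counts limit Ripk3 and Mlkl, which lie near 1 CPM in several cell types.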
